A study of Mus musculus with 6 samples.

Results

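The uncoupling protein genes Ucp1, Ucp2 and Ucp3 and 6 further genes of brown fat thermogenesis, Cidea, Elovl3, Dio2, Otop1, Kng2 and Pank1, were followed in brown adipose tissue (BAT) of mice that lack soluble ST2 (sST2). The genes were chosen by name, with earlier results of these data known. They were found by their symbols, 9 of 35976 rows of the count table, and all 9 passed the filter on low counts. The tissue of 3 WT and 3 sST2-KO mice had been measured by RNA-seq, with 1 library per mouse. All 6 were male mice of the C57BL/6J background, 10 weeks old, whose BAT had been surgically denervated, who were then kept at 30 °C for 7 days and exposed to 10 °C for 8 h before the tissue was taken. The sST2-KO mice carried a germline CRISPR/Cas9 deletion in every cell, which removed the Il1rl1 intron that follows exon 8 and precedes exon 9, and the WT mice were littermates from heterozygous crosses. The comparison asked how the thermogenic program of denervated BAT in the cold differs when sST2 is missing. Groups with intact nerves or without cold are not analysed here, so the values give the difference between genotypes under that one condition.

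Brown adipocytes produce heat by letting protons flow back across the inner mitochondrial membrane through UCP1, the defining protein of the cell type, which fatty acids activate. UCP2 and UCP3 are close relatives in the same mitochondrial carrier family. UCP2 is found in many tissues and in immune cells, UCP3 in skeletal muscle and brown fat, and neither is held to carry the heat production of BAT. Cold normally acts through noradrenaline, β-adrenergic receptors, cAMP and protein kinase A, which raise the transcription of Ucp1, Dio2 and Elovl3 and start the breakdown of stored fat. The other genes sit around this core. CIDEA is a lipid droplet protein, ELOVL3 lengthens fatty acids, the deiodinase DIO2 makes active thyroid hormone inside the cell, OTOP1 is a proton channel, Kng2 encodes a kininogen, the precursor of kinins, and PANK1 is a kinase that starts the synthesis of coenzyme A.

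Factors that answer to cAMP bind the cAMP response element (CRE), with the letters TGACGTCA, whose core is TGACG. In the 250 bases before the start of the canonical transcript in GRCm39, the full CRE occurred on either strand in 1.695% of 21770 protein-coding genes and its core in 18.03%. Of the 9 genes, only Dio2 held a full CRE there, 81 to 88 bases before its start. Ucp1 held a core 107 to 111 bases before its start, and Ucp2 held a core on the opposite strand 20 to 24 bases before its start. The stretches below, from chr8:84016818-84016847 (plus strand), chr7:100142491-100142520 (plus strand) and chr12:90705889-90705918 (minus strand), are printed in the direction of the gene, with the matching letters in capitals. They show the genes of the set that held these letters.
Ucp1: gggctttgggagTGACGcgcggctgggagg
Ucp2: ctggctccgcctCGTCAcgccacgccccga
Dio2: ctctttctcaaTGACGTCAagatctttagc
No annotated exon overlaps these stretches. Those of Ucp1 and Ucp2 lie in an intron of longer isoforms of the same genes, and that of Dio2 lies within the long noncoding gene Gm26512 on the other strand. The letters AGGTCA, the core site of nuclear receptors, were found on either strand in 13.12% of these windows over all genes, and here in those of Ucp3 and Kng2. The letters TATAAA, read forward only, were found in 8.034% of windows over all genes, and here in those of Dio2 and Pank1. Such matches describe letters and are not measurements of binding. Of the genes with the CRE core, Ucp1 and Dio2 were called lower in sST2-KO BAT and Ucp2 was not called, as given further on, and Elovl3, Cidea and Otop1, which were called lower, held none of these letters in the window.

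The 6 libraries held between 8159442 and 12874809 counts, and each of the 9 genes had between 16 and 85345 counts in a library. Levels are given as CPM, counts relative to the library's total after scaling of the libraries by the trimmed mean of M values (TMM). The test was edgeR's quasi-likelihood test, its p values were adjusted by Benjamini-Hochberg over all 14542 genes that passed the filter, and an adjusted p under 0.05 counted as a call. SE stands for an approximate standard error of the fitted log2 fold change. It was derived from the test, as the absolute log2 fold change divided by the square root of the F statistic. The 3 values of a group always stand in the order of the replicate numbers. The summed level of 10 brown adipocyte markers was between 1230 and 2196 CPM in WT and between 135 and 335 CPM in sST2-KO libraries, and that of 8 general adipocyte genes was between 21881 and 26093 CPM in WT and between 6746 and 13213 CPM in sST2-KO libraries. Most of the brown adipocyte sum came from Cox8b, Slc27a2, Cox7a1 and Ppargc1a. Of the same list, Zic1 and Ebf2 overlapped between the groups and Lhx8 was called higher. Markers of other cells differed as well. The summed levels of 9 macrophage genes (793 to 1073 CPM in WT, 1441 to 6320 CPM in sST2-KO), of 6 neutrophil genes (29.7 to 122 CPM, and 135 to 698 CPM), of 7 T cell genes (13.9 to 15.5 CPM, and 123 to 151 CPM) and of 14 skeletal muscle genes (6.78 to 1187 CPM, and 3316 to 14528 CPM) were higher in every sST2-KO library, and that of 5 erythrocyte genes was lower (484 to 1584 CPM, and 11.1 to 107 CPM). Much of the macrophage sum was Lyz2, at 352, 309 and 265 CPM in WT and 710, 585 and 3383 CPM in the 3 sST2-KO mice. Lyz2, Adgre1, Cd68 and Itgam were higher in every sST2-KO library, while Csf1r, Mrc1, Cd14, C1qa and C1qb overlapped between the groups. The libraries of 2 mice stood apart. WT replicate 2 held 3192 CPM of the liver gene Alb, against 1.31 to 23.7 CPM in the others, and sST2-KO replicate 3 had the highest macrophage and muscle sums. In sST2-KO replicate 3 the mitochondrially encoded genes held 6.80% of the counts, against 11.8% to 16.6% in the other libraries, and 7 of the 9 genes had the lowest value of their group there. Il1rl1 had 19, 19 and 6 counts in WT mice against 55, 69 and 142 counts in sST2-KO mice, and since counts per gene add up its forms they do not check the deletion. In bulk tissue, fewer cells of a type and less RNA per cell cannot be told apart.

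Of the 9 genes, 7 were called lower in sST2-KO BAT and none higher, where 9.10% of the genes tested were called lower and 10.5% higher. In 8 of the 9 genes the groups did not overlap and all sST2-KO values were the lower ones, as in 19.7% of the genes tested. Since the 9 genes were chosen with earlier results of these data known, these counts describe the set and do not test it. Ucp1, Ucp3, Cidea, Elovl3, Dio2, Otop1 and Pank1 were called, Kng2 lay lower in every library without being called, and Ucp2 overlapped between the groups. Only 7 of the 14542 genes had a lower fitted log2 fold change than Elovl3, 29 a lower one than Ucp1, 58 than Pank1, 60 than Cidea, 89 than Otop1, 97 than Dio2, 251 than Kng2 and 941 than Ucp3. Those below Elovl3 included the liver genes Alb (-9.45) and Fga (-7.63), most of whose counts came from WT replicate 2. The median over all genes tested was 0.034 on the log2 scale.

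**Figure D1:**
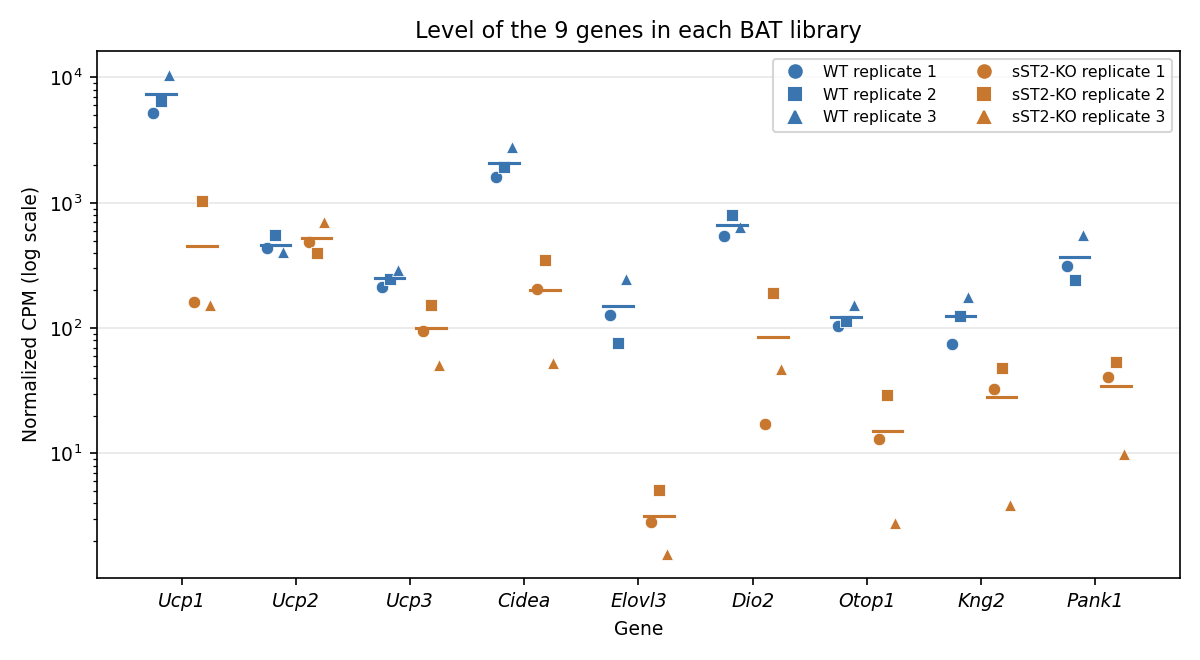
Normalized CPM (log scale) of each gene in the 3 WT (blue) and 3 sST2-KO (orange) libraries; each symbol is 1 library and the horizontal bars are group means. The groups are apart for all genes but Ucp2, and among the orange symbols the square, sST2-KO replicate 2, is the highest for all genes but Ucp2.

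Ucp1 had the highest level per kilobase of exon of the 9 genes in WT BAT. It lies on chromosome 8 from 84016647 to 84025085, and no other annotated gene overlaps it. Ucp1 had 5229, 6460 and 10522 CPM in the 3 WT mice against 160, 1042 and 153 CPM in the 3 sST2-KO mice. The lowest WT library was 5.02 times as high as the highest sST2-KO library, and sST2-KO replicate 2 stood at 6.80 times the lowest of its own group, against a span of 2.01 times within WT. The mean fell from 7404 ± 2770 CPM to 452 ± 511 CPM (SD, n = 3 each), and the fitted log2 fold change was -4.04 (SE 0.87, edgeR adjusted p = 0.0226). The adjusted p was 0.0571 without WT replicate 2 and 0.0820 without WT replicate 3, and leaving out sST2-KO replicate 2 moved the log2 fold change to -5.58.

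Ucp2, which lies on chromosome 7 from 100142055 to 100151227, overlapped between the groups. Ucp2 had 435, 557 and 402 CPM in the 3 WT mice against 482, 396 and 697 CPM in the 3 sST2-KO mice. The highest and the lowest value both came from sST2-KO libraries. The means were 465 ± 81.9 CPM in WT and 525 ± 155 CPM in sST2-KO BAT (SD, n = 3 each), and the fitted log2 fold change was 0.18 (SE 0.28, edgeR adjusted p = 0.693). Leaving out sST2-KO replicate 3 turned it to -0.090, so its sign rests on that library, and with libraries scaled by total counts it was 0.44 (adjusted p = 0.319). sST2-KO replicate 3 was also the library with the highest macrophage sum, 6320 CPM, and the highest neutrophil and T cell sums. Of the marker genes, 2 of 9 macrophage, 3 of 6 neutrophil and 6 of 7 T cell genes were called higher, beside 10.5% of all genes tested. None of these genes was at 0 in every library, and their part in the level of Ucp2 was not tested. Dnajb13 and Gm72028 overlap Ucp2 on the opposite strand, and whether the counting used strand is not given in the sources used here.

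Ucp3 lies on the same chromosome from 100122136 to 100135976, 6078 bases upstream of Ucp2 and on the same strand. Ucp3 had 213, 248 and 293 CPM in the 3 WT mice and 94.9, 153 and 51.1 CPM in the 3 sST2-KO mice. The groups did not overlap, and at their closest the WT value was 1.39 times the sST2-KO value. The mean fell from 251 ± 40.2 CPM to 99.7 ± 51.2 CPM (SD, n = 3 each), which was 39.7% of the WT mean, and the fitted log2 fold change was -1.33 (SE 0.38, edgeR adjusted p = 0.0482). Ucp3 was called in 1 of the 6 fits that left out a library. The adjusted p was 0.0593 with total counts, and it was 0.0723, 0.109 and 0.156 without WT replicates 1, 2 and 3 and 0.104 and 0.0698 without sST2-KO replicates 1 and 3. Skeletal muscle also expresses Ucp3. The muscle sum was 3316 to 14528 CPM in sST2-KO and 6.78 to 1187 CPM in WT libraries, and it was highest in sST2-KO replicate 3, the library with the lowest Ucp3. Of the 14 muscle genes, 2 were called higher, beside 10.5% of all genes tested. No muscle gene was at 0 in every library, although Myh2 had no count in WT replicates 2 and 3, and the part of muscle RNA in the level of Ucp3 was not tested. Gm10603 and Gm72028 overlap Ucp3 on the opposite strand.

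The family's makeup was compared per length, as CPM per kilobase of annotated exon. Ucp1 held 96.4%, 96.4% and 97.9% of the summed UCP level in the 3 WT mice and 49.4%, 86.4% and 42.9% in the 3 sST2-KO mice. Ucp2 held 2.12%, 2.197% and 0.988% in WT and 39.2%, 8.67% and 51.5% in the 3 sST2-KO mice. Ucp3 held 1.06% to 1.53% in WT and 4.95% to 11.4% in sST2-KO libraries. Ucp1 led in sST2-KO replicates 1 and 2 and Ucp2 in replicate 3. The size of the shares depends on the length used, since the annotated exons of Ucp2 sum to 7345 bases, and its coding sequence to 927 bases, close to the 921 of Ucp1 and the 924 of Ucp3. Per kilobase of coding sequence, Ucp1 held 89.0%, 89.0% and 93.8% in WT and 21.8%, 65.6% and 17.1% in the 3 sST2-KO mice, and Ucp2 led in sST2-KO replicates 1 and 3 with 65.3% and 77.2%. On both scales every WT library had a higher Ucp1 share than every sST2-KO library.

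**Figure D2:**
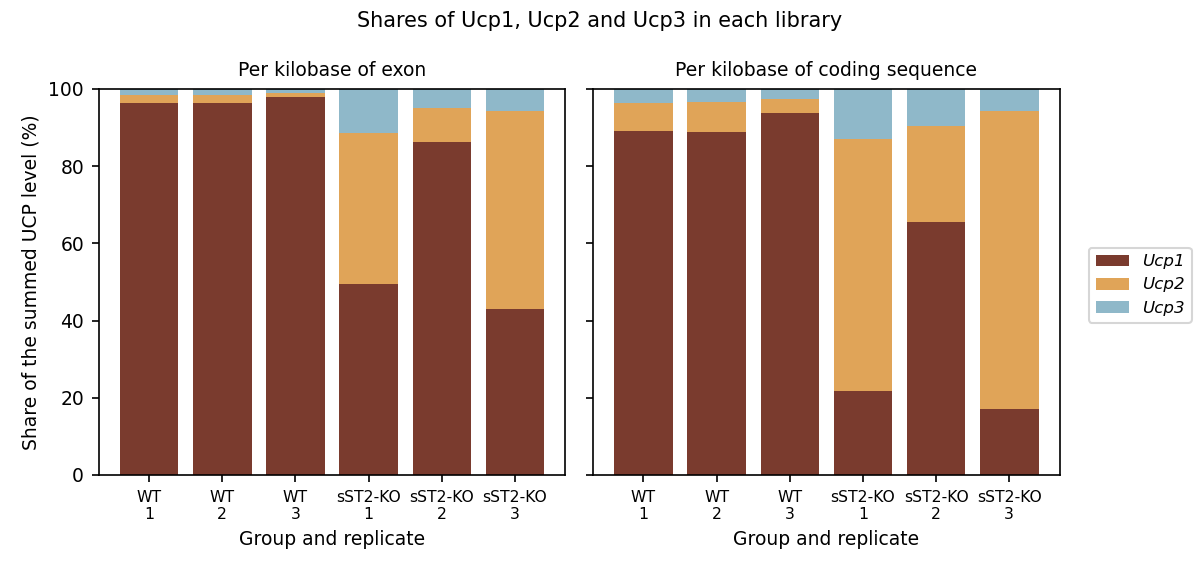
Share of Ucp1, Ucp2 and Ucp3 in their summed level per kilobase of exon (left) and per kilobase of coding sequence (right); each bar is 1 library. Ucp1 fills at least 88.97% of each WT bar on both scales, and in the sST2-KO bars its share runs from 42.9% to 86.4% on the left and from 17.1% to 65.6% on the right.

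Within a library, a ratio of 2 genes does not depend on how the library was scaled, apart from the prior count of 2 added before the log2. The log2 ratio of Ucp2 to Ucp1 CPM was -3.59, -3.53 and -4.71 in the 3 WT mice and 1.59, -1.40 and 2.18 in the 3 sST2-KO mice. The difference between the group means was 4.74. The log2 ratio of Ucp3 to Ucp1 was -4.62, -4.70 and -5.17 in WT and -0.76, -2.76 and -1.58 in the 3 sST2-KO mice, a difference of 3.13. Both ratios were higher in every sST2-KO library than in any WT library. An exact two-sided permutation test gave p = 0.1 for each, the smallest p that 3 against 3 allows, and 0.2 after Benjamini-Hochberg adjustment over the 8 ratios to Ucp1. Of the other ratios to Ucp1, those of Kng2 (difference 1.91) and Cidea (0.88) were also higher in every sST2-KO library, with the same exact p = 0.1 and adjusted 0.2. The ratios of Dio2, Otop1 and Pank1 to Ucp1 differed by 0.99, 1.05 and 0.95 and that of Elovl3 by -0.87, all with overlap between the groups and an exact permutation p of 0.2 to 0.3. With a prior count of 0.5 the Elovl3 difference was -0.94. With 1 library left out in turn, the difference ran from 4.04 to 5.83 for Ucp2 and from 2.66 to 3.66 for Ucp3. The smaller differences lay nearer 0 with 1 library left out. Without sST2-KO replicate 1 that of Kng2 was 1.06, that of Cidea 0.24, that of Otop1 0.44 and that of Pank1 0.24, without sST2-KO replicate 2 that of Elovl3 was -0.35 and without sST2-KO replicate 3 that of Dio2 was 0.62.

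Cidea, a lipid droplet protein gene of brown adipocytes on chromosome 18 from 67476317 to 67501224, came second to Ucp1 per kilobase of exon in WT BAT. Cidea had 1604, 1914 and 2765 CPM in the 3 WT mice and 207, 347 and 52.7 CPM in the 3 sST2-KO mice. The lowest WT library was 4.62 times as high as the highest sST2-KO library. The log2 fold change was -3.37 (SE 0.66, edgeR adjusted p = 0.0183), and the adjusted p rose to 0.0502 when WT replicate 2 was left out and to 0.0719 when WT replicate 3 was. The noncoding gene B430212C06Rik overlaps it on the opposite strand. Its relatives Cideb and Cidec were measured as well, and their difference from Cidea in size of change was not tested. Cideb, which acts in lipoprotein assembly in liver, was called lower (log2 fold change -2.31, SE 0.60, edgeR adjusted p = 0.0366), at 5.04, 15.6 and 3.70 CPM in the 3 WT mice, where the highest value came from the library with the liver transcripts. Cidec, the droplet protein that white adipocytes use, had 490.1 to 1148 CPM in sST2-KO and 949 to 1549 CPM in WT libraries, which overlapped (-0.55, adjusted p = 0.330).

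The 11 lipid droplet and lipolysis genes listed beside Cidea were all tested, with a median log2 fold change of -1.17. Of these, 4 were called lower and none higher, beside 9.10% and 10.5% of all genes tested. Besides Cideb, these were Plin5, which ties droplets to mitochondria (-2.35, adjusted p = 0.0266), Mgll, the monoglyceride lipase (-1.43, adjusted p = 0.0231), and Abhd5, the activator of the triglyceride lipase ATGL (-1.17, adjusted p = 0.0201). Pnpla2, the gene of that lipase, had 2877, 5211 and 4912 CPM in WT mice against 2237, 2058 and 920 CPM in sST2-KO mice, and was not called (log2 fold change -1.32, adjusted p = 0.0719).

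Elovl3, an elongase of very long chain fatty acids on chromosome 19 from 46119917 to 46124133, had the lowest fitted log2 fold change of the 9 genes, although its ratio to Ucp1 overlapped between the groups. Elovl3 had 128, 76.5 and 245 CPM in the 3 WT mice and 2.86, 5.10 and 1.58 CPM in the 3 sST2-KO mice, the latter from 41, 43 and 16 counts. The lowest WT library was 15.0 times as high as the highest sST2-KO library, while the libraries within a group spanned 3.20 times in WT and 3.23 times in sST2-KO. The sST2-KO mean was 2.12% of the WT mean. The log2 fold change was -5.57 (SE 0.60, edgeR adjusted p = 0.00912). Leaving out 1 library at a time gave values of -6.07 to -5.02, and Elovl3 was the only 1 of the 9 genes called in all 6 of these fits, with an adjusted p of at most 0.0363. Pitx3 overlaps Elovl3 on the opposite strand.

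Of 11 genes listed for fatty acid elongation beside Elovl3, 8 were tested, with a median log2 fold change of -0.76. In this list 3 were called lower and none higher, beside 9.10% and 10.5% of all genes tested. Elovl6, which elongates palmitate to stearate, had 218, 124 and 328 CPM in WT and 39.03, 39.04 and 10.9 CPM in the 3 sST2-KO mice (log2 fold change -2.91, adjusted p = 0.0176 by edgeR). The genes of the shared elongation cycle, Hsd17b12 for the ketoacyl reductase and Tecr for the enoyl reductase, were called lower by 1.12 and 1.03 on the log2 scale (adjusted p = 0.0307 and 0.0221). Elovl1 was above WT in every sST2-KO library without passing the test (0.44, adjusted p = 0.145), and was called only with total counts (0.70, adjusted p = 0.0439). Elovl5 overlapped, at 87.0 to 126 CPM in sST2-KO and 94.3 to 140 CPM in WT libraries (-0.23, adjusted p = 0.509).

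Dio2, the deiodinase gene with the full CRE, lies on chromosome 12 from 90691322 to 90705819. Dio2 had 547, 801 and 639 CPM in the 3 WT mice and 17.3, 192 and 47.3 CPM in the 3 sST2-KO mice. The WT libraries lay within 1.46 times of each other and the sST2-KO libraries within 11.1 times, with replicate 2 again the highest and here replicate 1 the lowest. The mean fell from 663 ± 129 CPM to 85.5 ± 93.4 CPM (SD, n = 3 each), and the fitted log2 fold change was -2.96 (SE 0.80, edgeR adjusted p = 0.0404). The adjusted p was 0.0699, 0.0982 and 0.112 without WT replicates 1, 2 and 3 and 0.105 without sST2-KO replicate 3, and leaving out sST2-KO replicate 2 moved the log2 fold change to -4.38. Gm26512 overlaps Dio2 on the opposite strand. Of 11 genes of thyroid hormone action listed beside Dio2, 8 were tested, with a median log2 fold change of -0.25. None was called by edgeR, where 9.10% of all genes tested were called lower and 10.5% higher. The receptor genes Thra (-0.36, adjusted p = 0.239) and Thrb (-0.14, adjusted p = 0.786) overlapped between the groups. Thrsp, a lipogenic gene named for its response to thyroid hormone, was below WT in every sST2-KO library (-1.75, adjusted p = 0.0891). Dio1 had 8 counts in WT replicate 2 and none in the other libraries, and Dio3, which inactivates the hormone, had 1 to 12 counts in every library.

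Otop1, the proton channel gene on chromosome 5 from 38433316 to 38461558, had 105, 113 and 154 CPM in the 3 WT mice and 13.1, 29.3 and 2.76 CPM in the 3 sST2-KO mice. The groups did not overlap, and the sST2-KO libraries spanned 10.6 times. The log2 fold change was -3.05 (SE 0.70, edgeR adjusted p = 0.0268). The adjusted p was 0.05004, 0.0659 and 0.0947 without WT replicates 1, 2 and 3, the first of these just above the threshold, and 0.0655 without sST2-KO replicate 1. No other annotated gene overlaps Otop1. The other otopetrin genes, Otop2 and Otop3, had 0 counts in all 6 libraries, so Otop1 was the only otopetrin detected at this depth. In 1 library taken alone, 0 counts allow an expected count of up to 3 by counting error.

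Kng2, the kininogen gene on chromosome 16 from 22804602 to 22848232, had 74.3, 124 and 178 CPM in the 3 WT mice and 32.5, 47.9 and 3.85 CPM in the 3 sST2-KO mice. The groups did not overlap, at their closest the WT value was 1.55 times the sST2-KO value, and sST2-KO replicate 3 lay far below the other two. The log2 fold change was -2.16 (SE 0.77, edgeR adjusted p = 0.0848), so Kng2 did not pass the threshold. DESeq2 gave an adjusted p of 0.00923, and without sST2-KO replicate 3 the edgeR log2 fold change was -1.65 with an adjusted p of 0.0470. Kininogens are also made by liver. The paralog Kng1 had 17, 1612 and 1 counts in WT mice against 4, 0 and 1 counts in sST2-KO mice, with nearly all of them in WT replicate 2, the library with the liver transcripts. Kng2 did not stand out in that library, and without it the log2 fold change was -2.17 (adjusted p = 0.160). The summed level of 15 liver genes was 4925 to 14676 CPM in WT and 4480 to 11041 CPM in sST2-KO libraries, but most of it in every library other than WT replicate 2 was Hp, which fat also expresses, and in sST2-KO replicate 1 Hp made up 10795 of the 11041 CPM. Without Hp, left out after its values were seen, the other 14 genes summed to 671, 7540 and 465 CPM in the 3 WT mice and 246, 200.3 and 544 CPM in the 3 sST2-KO mice, and Alb was at 1.31 to 1.88 CPM in sST2-KO libraries. In every library other than WT replicate 2, most of that sum was Cyp2e1 and Trf. Cyp2e1 had 396, 336 and 244 CPM in WT and 79.4, 72.6 and 59.1 CPM in the 3 sST2-KO mice. Trf had 221, 1203 and 187 CPM in WT and 156, 117 and 473 CPM in the 3 sST2-KO mice. Of the 6 liver genes tested, 3 were called lower, Alb, Apoa2 and Cyp2e1, beside 9.10% of all genes tested. None of the 15 was at 0 in every library, and the part of liver RNA in the level of Kng2 was not tested. Reads that match both paralogs cannot be assigned to 1 of them, and how the counting treated such reads is not given in the sources used here. The pseudogene Gm6493 overlaps Kng2 on the same strand. Of 9 genes of the kinin system listed beside Kng2, 4 were tested and 1 was called lower by edgeR, beside 9.10% of all genes tested. It was Mme, which encodes neprilysin, a peptidase that degrades kinins (-1.54, adjusted p = 0.0238). The receptor gene Bdkrb2 had 0.933 to 1.97 CPM in WT and 1.88 to 3.06 CPM in sST2-KO libraries (0.76, adjusted p = 0.217).

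Pank1, the pantothenate kinase gene on chromosome 19 from 34784339 to 34856865, had 314, 243 and 558 CPM in the 3 WT mice and 40.6, 53.9 and 9.87 CPM in the 3 sST2-KO mice. The lowest WT library was 4.51 times as high as the highest sST2-KO library. The log2 fold change was -3.42 (SE 0.64, edgeR adjusted p = 0.0168). Leaving out WT replicate 3 gave an adjusted p of 0.0669. The microRNA gene Mir107 lies within Pank1 on the same strand. Of the other pantothenate kinase genes, Pank2 (log2 fold change 0.07, adjusted p = 0.812) and Pank3 (0.02, adjusted p = 0.953) had nearly equal group means, and Pank4 had -0.42 (adjusted p = 0.207). The 11 genes listed for coenzyme A beside Pank1 were all tested, with a median log2 fold change of -0.01. By edgeR 3 were called lower and none higher, beside 9.10% and 10.5% of all genes tested. Slc25a42, the carrier that brings coenzyme A into mitochondria, had 196, 155 and 204 CPM in WT and 16.9, 21.4 and 10.1 CPM in the 3 sST2-KO mice (-3.53, adjusted p = 0.00831). Ppcs, the enzyme that follows the kinase, was called lower by 1.73 on the log2 scale (adjusted p = 0.0185), and Slc5a6, the transporter for pantothenate, by 0.80 (adjusted p = 0.0414).

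**Figure D3:**
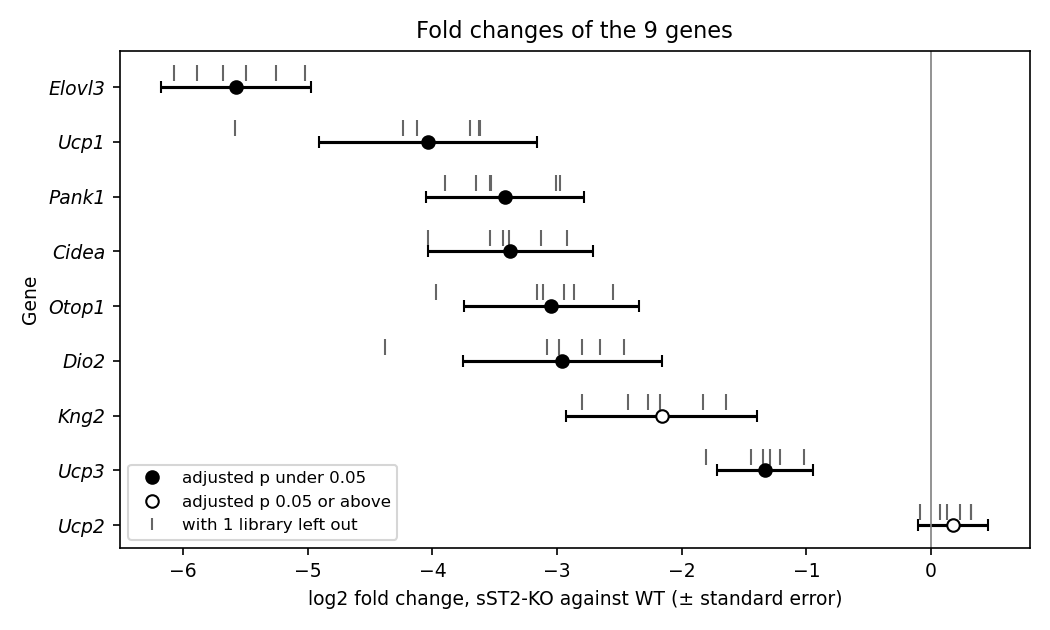
Fitted log2 fold change of each gene, sST2-KO against WT (circles, filled where the adjusted p was under 0.05). Bars are the approximate SE derived from the F statistic, and ticks are the values with 1 library left out. Elovl3 lies furthest to the left at -5.57, Ucp2 is the only gene whose ticks lie on both sides of 0, and for the other 8 genes the leftmost tick is the value without sST2-KO replicate 2.

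The order of the 9 genes by level per kilobase of exon also differed between the groups. In WT BAT the mean was 3814 CPM per kilobase for Ucp1, 936 for Cidea and 103 for Dio2, with no overlap between these 3 genes. Elovl3 (66.1), Ucp2 (63.3), Ucp3 (50.5), Kng2 (44.8), Pank1 (44.4) and Otop1 (33.7 CPM per kilobase) followed, and no neighbors from Dio2 downward differed beyond the spread of their libraries. In sST2-KO BAT the order was Ucp1 (233), Cidea (90.3), Ucp2 (71.4), Ucp3 (20.02), Dio2 (13.3), Kng2 (10.03), Pank1 (4.16), Otop1 (4.10) and Elovl3 (1.40 CPM per kilobase). There, only Ucp2 and Ucp3 were neighbors whose libraries did not overlap. Ucp2 moved from the fifth to the third place and Elovl3 from the fourth to the last. Per kilobase of coding sequence, Ucp2 held the fourth place in WT (501 CPM per kilobase) and the first in sST2-KO (566), ahead of Ucp1 (490.4), though these overlapped.

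Each level was also set against 8 genes that all adipocytes use, Adipoq, Fabp4, Plin1, Lpl, Cd36, Pparg, Cebpa and Lipe. Their own median log2 fold change was -0.92, and 2 of the 8 were called lower, beside 9.10% of all genes tested. They were Adipoq (-1.24, adjusted p = 0.0335) and Lpl (-1.70, adjusted p = 0.0349). Relative to the mean log2 CPM of these genes, Ucp1 was 1.97, 2.02 and 2.76 in WT and -2.22, 0.09 and -1.61 in the 3 sST2-KO mice, a difference of -3.50 on the log2 scale. Cidea (-2.62), Elovl3 (-4.36), Dio2 (-2.50), Otop1 (-2.45), Kng2 (-1.58) and Pank1 (-2.54) were likewise lower in every sST2-KO library than in any WT library. Ucp2 was higher in every sST2-KO library on this scale, at -0.63, -1.30 and 0.57 against -1.62, -1.51 and -1.95 in the 3 WT mice, a difference of 1.24. The CPM of Ucp2 itself overlapped between the groups, while the mean log2 CPM of the 8 genes was lower in every sST2-KO library. That mean was 10.4, 10.6 and 10.6 in WT and 9.54, 9.93 and 8.87 in the 3 sST2-KO mice. The scale describes RNA of bulk tissue and not levels within adipocytes. Ucp3 overlapped, at -2.97, -2.67 and -3.19 against -2.65, -2.68 and -2.40, a difference of -0.37 with an exact permutation p of 0.2. For the other 8 genes the exact two-sided permutation p was 0.1, the smallest possible, and 0.112 after adjustment over the 9 ratios. On this scale the other called genes differed by -2.45 to -4.36. With 1 library left out in turn the difference of Ucp2 ran from 0.73 to 1.66, with the lowest value without sST2-KO replicate 3. Without that library the difference of Kng2 was -0.77, and without sST2-KO replicate 1 that of Dio2 was -1.64.

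**Figure D4:**
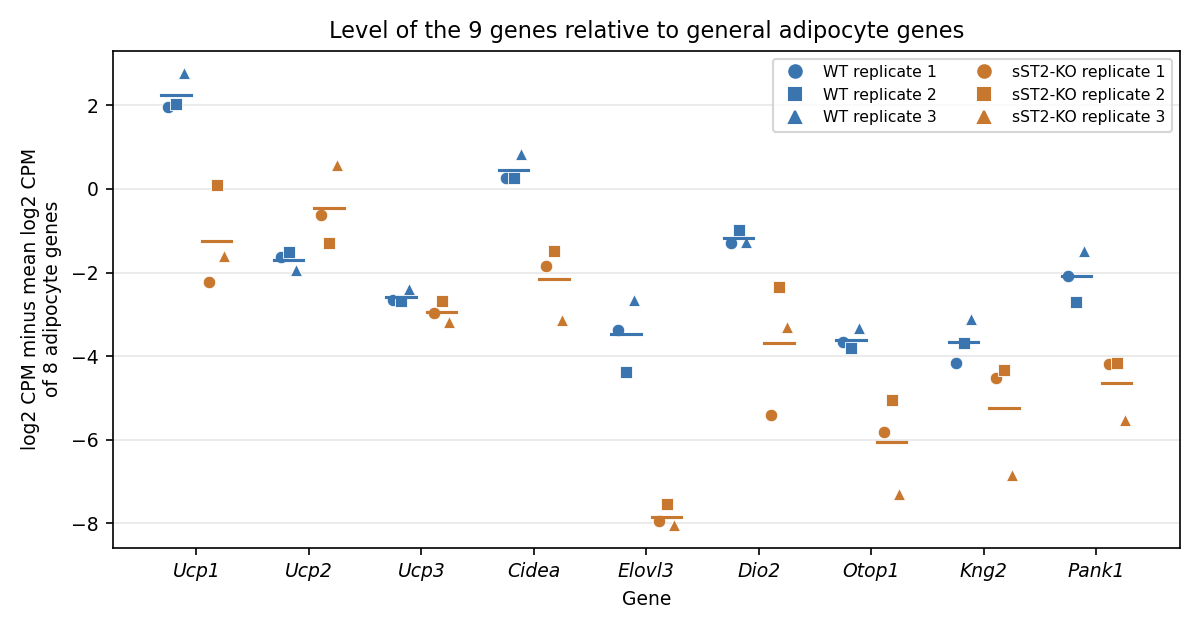
Level of each gene relative to 8 general adipocyte genes (log2 CPM minus their mean log2 CPM) in each WT (blue) and sST2-KO (orange) library, with group means as bars. Ucp2 is the only gene with all orange symbols above the blue ones, and for Ucp3 the symbols of the groups overlap. The mean of the 8 genes was itself lower in every sST2-KO library.

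The genes with the profile most like each UCP across the 6 libraries were found by the root mean square difference of centered log2 CPM, over the 11620 genes whose log2 CPM averaged at least 2. For Ucp1 these were Clstn3 (0.327), A530050N04Rik (0.498), Cox7a1 (0.507), Sgk2 (0.531) and Mfsd2a (0.580), followed by Dio2 as the sixth. Clstn3 had 335, 585 and 777 CPM in WT and 19.9, 87.7 and 16.8 CPM in the 3 sST2-KO mice, and like Ucp1 it was highest in WT replicate 3 and in sST2-KO replicate 2. Elovl3 stood at place 8, Cidea at 9, Otop1 at 14, Pank1 at 17 and Kng2 at 95 in likeness to Ucp1, whereas Ucp3 stood at 391 and Ucp2 at 7918. The genes most like Ucp3 were Mmp17, Arhgef28, Itpr2, Pon3 and Gtf2ird1, at 0.137 to 0.145. Pon3 had 109, 103 and 124 CPM in WT and 47.7, 61.2 and 25.2 CPM in the 3 sST2-KO mice. The genes most like Ucp2 were Zbtb45, Man2b1, Heatr6, Primpol and Nuak1, at 0.0998 to 0.106, and none of these 5 was called (adjusted p of 0.491 to 0.710). These distances describe 6 libraries that share their group difference and are given without a test.

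Around the 9 genes, 85 genes of 9 lists, also chosen with earlier results of these data known, were looked at, 72 of them tested. By edgeR 21 were called lower, or 29.2% beside the 9.10% over all genes tested, and none was called higher, with a median log2 fold change of -0.61. The count was 7 without WT replicate 2, 2 without WT replicate 3 and 11 without sST2-KO replicate 3. Slc25a42 and Esrra were called in all 6 fits that left out a library. Mitochondrial carriers related to the UCPs had a median of -0.0047, and 1 of 7 was called lower, Slc25a11, the oxoglutarate carrier (-0.95, adjusted p = 0.0241). The adenine nucleotide carrier genes Slc25a4 (-0.41, adjusted p = 0.252) and Slc25a5 (-0.68, adjusted p = 0.0670) were not called, nor were Slc25a14 and Slc25a27, also named UCP5 and UCP4.

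The next list held genes that carry the adrenergic signal, from receptors to factors. The receptor genes Adrb1 (0.39, adjusted p = 0.674) and Adrb3 (-0.38, adjusted p = 0.629) overlapped between the groups. Adrb3, the main β-adrenergic receptor of mouse brown fat, had 119, 67.7 and 51.8 CPM in WT and 30.6, 111 and 42.2 CPM in the 3 sST2-KO mice. The 12 genes of this list were all tested, with a median of -0.62. By edgeR 6 were called lower, beside 9.10% of all genes tested. Adcy3, an adenylyl cyclase, had 303, 372 and 486 CPM in WT and 34.6, 79.1 and 23.1 CPM in the 3 sST2-KO mice (-3.09, adjusted p = 0.0136). The protein kinase A genes Prkar2b (-2.16, adjusted p = 0.0150) and Prkaca (-1.24, adjusted p = 0.0220), the gene of the stimulatory G protein Gnas (-1.59, adjusted p = 0.0249), the phosphodiesterase gene Pde3b (-1.39, adjusted p = 0.0191) and Atf2 (-0.85, adjusted p = 0.0195), whose protein binds CRE-like sites, were the others. Creb1, the CRE binding factor, overlapped (0.29, adjusted p = 0.369).

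Among 11 transcriptional regulators of thermogenic genes, all tested, the median was -1.08. Here 3 were called lower and none higher, beside 9.10% and 10.5% of all genes tested. Esrra, an orphan nuclear receptor of mitochondrial genes, had 126, 114 and 172 CPM in WT and 36.5, 40.5 and 43.0 CPM in the 3 sST2-KO mice (-1.78, adjusted p = 0.01004 by edgeR). Ppargc1a, the coactivator of Ucp1 and mitochondrial genes, had 149.9, 252 and 171 CPM in WT and 20.4, 59.2 and 45.1 CPM in the 3 sST2-KO mice (-2.202, adjusted p = 0.0167), and as for Ucp1 sST2-KO replicate 2 was the highest of its group. Irf4, a factor of the fasting and thermogenic response, was called lower as well (-3.14, adjusted p = 0.0398), with 1418 CPM in WT replicate 3 and 147 and 225 CPM in WT replicates 1 and 2 against 53.2 to 78.6 CPM in sST2-KO libraries. Without WT replicate 3 its log2 fold change was -1.46 (edgeR adjusted p = 0.0630). The adjusted p was 0.0323 and 0.0564 without WT replicates 1 and 2. It was 0.0943, 0.0860 and 0.0934 without sST2-KO replicates 1, 2 and 3. Prdm16 (-1.38, adjusted p = 0.137) and Ebf2 (-0.22, adjusted p = 0.724), which set brown adipocyte identity, and Pparg (-0.66, adjusted p = 0.210) were not called.

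**Figure D5:**
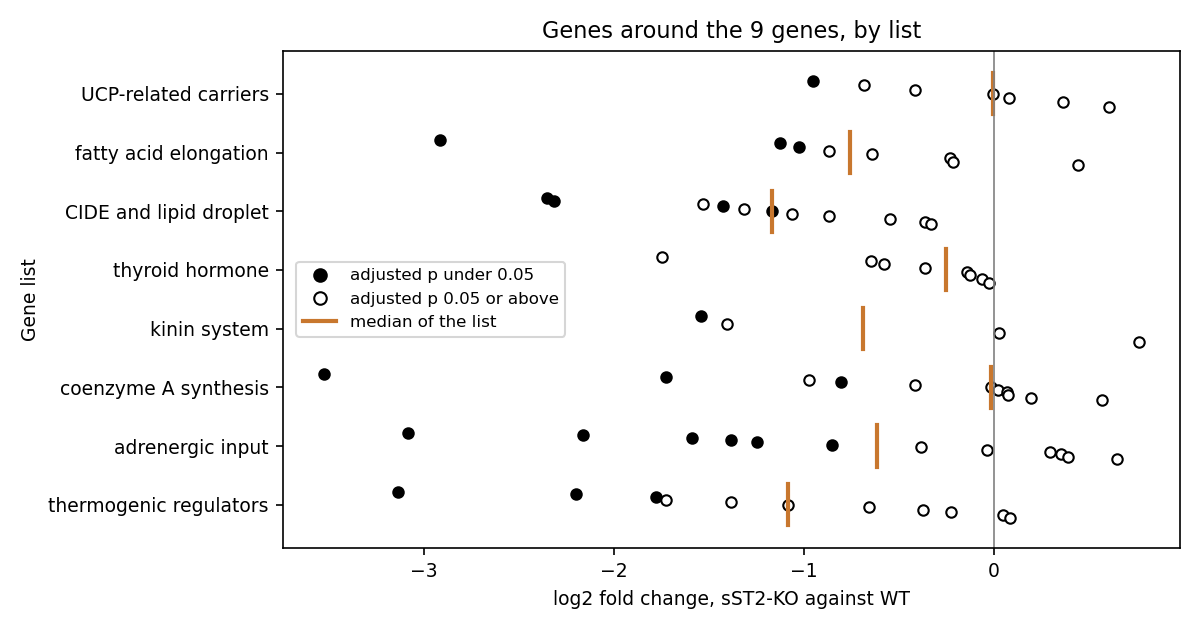
Log2 fold change, sST2-KO against WT, of the tested genes of each list around the 9 genes (circles; filled where the adjusted p was under 0.05), with the median of the list (orange bar). All 21 filled circles lie left of 0, and the lists with a median near 0 are those of UCP-related carriers and coenzyme A synthesis.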

How the data were processed

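RNA-seq of BAT had been done on poly-A-selected libraries with 150-base paired-end reads. The authors checked reads with FastQC 0.12.1, aligned them to mm39 with HISAT2 2.2.1 (versions per the submitters' processing notes) and ran htseq-count, and the deposited values are raw counts per gene symbol for each library. The annotation, the version and the strand setting of the counting are not given in the sources used here. Samples were grouped by their labels, 3 per group, and no column was left out (0 unused). Of 35976 rows, 11377 had no count.

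Counts were analyzed with edgeR 4.0.16 in R 4.3.3 (filterByExpr, TMM, glmQLFit, glmQLFTest, no covariate) on all 6 libraries, with Benjamini-Hochberg adjustment over 14542 genes, and calls, in either direction, needed an adjusted p under 0.05. The study's methods name DESeq2 and a change above 2-fold, and both were alternatives here. Log2 ratios used a prior count of 2 and exact permutation tests in scipy 1.17.1. Exon and coding lengths, coordinates and sequence came from GRCm39 with GENCODE M39, the same build as the authors' mm39. The common biological coefficient of variation was 0.325. Of the steps, only the edgeR fit was tested on simulated counts, which were drawn with the same dispersion for every gene.

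The members and lists were chosen with earlier results of these data known, so no test over a list was made. The genes named were all 9 members, the called genes of each list, others of a list by value, and the 5 genes most like each UCP. Genes of a list that were not called, and Lhx8, Alb, Hp, Cyp2e1, Trf, Lyz2, Slc27a2 and Il1rl1, were picked after their values were seen. As alternatives, total counts, RLE factors and DESeq2 1.42.0 were run, with other filters (no filter, or at least 10 counts in every library), robust estimation, a 2-fold minimum, the replicate block, a prior count of 0.5, coding length, Adipoq alone as the reference and each library left out in turn. No library was a copy, since any pair within a group had a chi-square per degree of freedom between 36.65 and 104. The deviations of same-numbered libraries from their group means had correlations of -0.06, 0.21 and -0.31 for replicates 1, 2 and 3. With 3 libraries per group these cannot settle whether the numbers pair the mice. The single values of 2 genes of the lists are not reported here.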

Additional observations from a re-analysis of the deposited data

How the results depend on the processing

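With 3 mice per group the calls depended on single libraries. With 1 library left out in turn, 22 to 1189 genes were called lower (1323 with all libraries), 36 to 1502 higher (1524), 2 to 21 genes of the pathway lists lower (21) and 1 to 7 of the 9 members lower (7). Over these fits the log2 fold change ran from -5.58 to -3.62 for Ucp1, from -0.090 to 0.32 for Ucp2, from -1.80 to -1.02 for Ucp3, from -4.04 to -2.92 for Cidea, from -4.38 to -2.46 for Dio2, from -3.97 to -2.55 for Otop1, from -2.80 to -1.65 for Kng2 and from -3.90 to -2.98 for Pank1. Ucp2 changed sign without sST2-KO replicate 3, where it was -0.090, and the other 8 members kept theirs.

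The labels number the mice of both groups 1 to 3 and do not say whether the numbers pair them. With the replicate number as a block, 0 genes were called by edgeR in either direction, 0 of the pathway lists and 0 of the members, although 4623 genes and 7 members had an unadjusted p under 0.05 and DESeq2 without the block called 8 members. The block gave -4.64 for Ucp1, -1.45 for Ucp3, -3.63 for Cidea, -5.48 for Elovl3, -3.61 for Dio2, -3.43 for Otop1 and -3.54 for Pank1, with adjusted p of 0.0644 to 0.0927.

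Total counts moved the median log2 fold change of all genes from 0.034 to 0.293 and the calls to 891 lower and 2181 higher. On that scale Ucp3 was -1.08 (adjusted p = 0.0593), and 1 gene of the pathway lists, Elovl1, was called higher. DESeq2 called Kng2 (-2.18). By coding length, 3 members kept their place in the order of levels in WT and 2 in sST2-KO. The other settings (RLE factors, the filters, robust estimation, the 2-fold minimum, the prior count and Adipoq alone) changed no call of a member and moved no count by 1.5 times. The cause of these changes was not tested.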

Other observations

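Within the brown adipocyte list, 6 of 10 genes were called lower in sST2-KO BAT and 1, Lhx8, was called higher. Over all genes tested these shares were 9.10% and 10.5%. Lhx8, a transcription factor gene used as a marker of classical brown fat and chosen here with its values in view, had 3.82, 3.20 and 2.84 CPM in WT mice against 16.4, 7.95 and 11.3 CPM in sST2-KO mice (log2 fold change 1.85, edgeR adjusted p = 0.0166). The groups did not overlap. Zic1, another such marker, had 5.79 to 8.96 CPM in WT and 8.69 to 17.6 CPM in sST2-KO libraries, which overlapped (log2 fold change 0.68, adjusted p = 0.2002). In the same libraries the respiratory chain genes of the list fell, Cox7a1 by 3.68 and Cox8b by 2.96 on the log2 scale (adjusted p = 0.0154 and 0.0171). Of the 6 white adipocyte markers, Mest (2.10, adjusted p = 0.0248) and Sncg (1.46, adjusted p = 0.0496) were called higher, beside 10.5% of all genes tested. Sncg overlapped between the groups, at 51.8 to 116 CPM in WT and 115 to 285 CPM in sST2-KO libraries. Retn, Nnat and Agt had negative log2 fold changes and Lep a positive one, and none of these was called. The summed level of that list overlapped between the groups.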
